A study of Homo sapiens with 42 samples.

Results

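The BCL2 family of apoptosis regulators was followed by 10 genes: the anti-apoptotic members BCL2, MCL1, BCL2L1 and BCL2A1, the pore-forming effector BAK1, and the BH3-only members BCL2L11, BID, BIK, BMF and HRK. They were chosen by gene name, each name matched 1 of the 60240 genes of the table, and all 10 were among the 22168 genes tested. The cells were 5 established human acute myeloid leukaemia (AML) lines labelled wild type: SKM-1, OCI-AML3, KG-1 and the sister lines MOLM-13 and MOLM-14. In each line, cells that received 3 daily doses of decitabine at 100 nM were compared with cells that received the solvent DMSO, and RNA was taken at 72 hours. Each line and treatment had 3 libraries, 30 in all. Each line is a culture grown from 1 patient's leukaemia, and wells of 1 line may have been seeded from 1 culture, so that the p-values reflect only how far these libraries spread, and that spread may be technical. The values are normalised counts of total RNA per gene, and differences are given on the scale of log2(normalised count + 1), decitabine minus DMSO, with the standard error (SE) of a limma fit to all 30 libraries. The added 1 shrinks differences between low values, while a library at 0 can widen a difference between means of 3 libraries, as for BCL2A1 in OCI-AML3. A gene is said to rise or fall where its Benjamini-Hochberg adjusted p over the 22168 genes was below 0.05. Where groups of 3 libraries are said not to overlap, this is a description and not a test, with no share of all genes beside it. Such separation may be frequent among all genes in MOLM-13 and SKM-1 and is not read as a response of a member. With each line fitted on its own, 21.1% of all tested genes passed in MOLM-13 and 35.3% in SKM-1, against at most 1.24% in the other lines.

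Proteins of the BCL2 family decide whether the outer membrane of the mitochondrion is opened, the step that commits a cell to intrinsic apoptosis. Anti-apoptotic members hold the BH3 helix of pro-apoptotic members in a groove on their surface; BH3-only proteins fill that groove or activate BAK1 and its relative BAX, which then form pores and release cytochrome c. AML cells are known to lean on BCL2 and MCL1, and venetoclax, a BCL2 inhibitor, is given with decitabine or azacitidine in this disease. Decitabine is a cytidine analogue that is built into DNA and traps DNA methyltransferases, so that methylation of CpG sites is lost as cells divide.

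Depth differed between the libraries. They held an estimated 1.97 to 75 (in units of 1e+06) reads in genes, and 6 libraries were shallow, at 1.97 to 4.59 in those units: replicate 2 of both treatments in OCI-AML3, KG-1 and MOLM-14. In those 6 libraries 1 read is worth 4.30 to 10.3 normalised counts, and in the other 24 it is worth 0.279 to 1.38. The MOLM-13 and SKM-1 libraries were submitted apart from the rest and were all deeper, at 42.9 to 75 against at most 31.2 in the other 3 lines. A difference between a line of one set and a line of the other, the sister lines included, cannot be told apart from this division. The share of the total taken by mitochondrial genes averaged 12.1% ± 0.41 after decitabine and 11.3% ± 0.87 in DMSO in KG-1, and 18.7% ± 0.45 after decitabine and 13.5% ± 0.88 in DMSO in MOLM-13, with the other 3 lines between these in difference (SD, n = 3 each). Every one of the 7 myeloid markers reached 10 in at least 1 library of every group except CD34. All libraries of both MOLM-13 groups and of SKM-1 DMSO were below 10 for CD34. T-cell and B-cell markers summed to at most 86.3 normalised counts outside KG-1, where they summed to 327 to 364 after decitabine and 211 to 226 in DMSO.

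The promoters of the members that rose or fell on the mean of the 5 lines are shown because decitabine acts on CpG sites and these windows differ widely in how many they hold. Each is 250 bases before to 50 bases after a RefSeq transcription start (GRCh38.p14, minus strand), written 5′ to 3′ with every CpG dinucleotide, the motif CG, in capitals; CG reads the same on both strands. Of the 10 members 8 matched the RefSeq table, with 14 windows, and BIK and MCL1 are named only.
BCL2, chr18:63319720-63320019: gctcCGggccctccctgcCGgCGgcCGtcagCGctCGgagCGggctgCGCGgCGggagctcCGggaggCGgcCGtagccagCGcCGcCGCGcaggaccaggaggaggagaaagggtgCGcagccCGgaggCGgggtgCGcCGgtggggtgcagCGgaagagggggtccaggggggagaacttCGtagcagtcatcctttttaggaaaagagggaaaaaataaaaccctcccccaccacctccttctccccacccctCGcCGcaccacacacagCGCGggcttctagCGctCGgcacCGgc
BCL2A1, chr15:79971147-79971446: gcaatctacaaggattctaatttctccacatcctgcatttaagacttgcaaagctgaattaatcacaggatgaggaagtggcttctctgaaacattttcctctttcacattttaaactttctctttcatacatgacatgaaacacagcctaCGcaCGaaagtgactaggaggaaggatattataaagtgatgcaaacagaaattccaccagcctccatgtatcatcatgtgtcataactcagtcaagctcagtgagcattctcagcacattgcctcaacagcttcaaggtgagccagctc
BAK1, chr6:33580227-33580526: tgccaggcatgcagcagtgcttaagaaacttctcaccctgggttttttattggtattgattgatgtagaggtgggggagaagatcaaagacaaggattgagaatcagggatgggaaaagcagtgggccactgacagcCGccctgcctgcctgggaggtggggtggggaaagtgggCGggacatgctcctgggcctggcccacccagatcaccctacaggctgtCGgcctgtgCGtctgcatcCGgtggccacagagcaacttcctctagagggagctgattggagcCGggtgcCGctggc
BMF, chr15:40108830-40109129: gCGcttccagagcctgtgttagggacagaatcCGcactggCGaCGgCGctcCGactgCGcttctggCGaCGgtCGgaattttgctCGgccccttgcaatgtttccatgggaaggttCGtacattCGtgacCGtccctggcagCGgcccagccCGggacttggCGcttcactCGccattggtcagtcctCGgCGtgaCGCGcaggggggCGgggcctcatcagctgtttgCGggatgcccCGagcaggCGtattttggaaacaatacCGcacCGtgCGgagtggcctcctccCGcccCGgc
The BCL2 and BMF windows held 31 CpG each, more than 79.3% of the 35116 RefSeq windows of this length, whose median was 14. The BCL2A1 window held 2, with fewer in only 11% of all windows, and the BAK1 window held 7, with fewer in 36.8%. A further start of BMF had 1 CpG. The single windows of HRK and BCL2L11 held 25 and 39, the 2 of BCL2L1 held 20 and 16, and the 5 of BID held between 6 and 37. Methylation was not measured in these libraries, and the CpG number is a description of the sequence alone.

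On the mean of the 5 lines, BCL2 fell, and BCL2A1, BIK, BMF and BAK1 rose. BCL2, the target of venetoclax, differed by −0.62 (SE 0.06). Its relative BCL2A1, which is anti-apoptotic too, was higher by 1.22 (SE 0.23). Of the pro-apoptotic genes, BIK was higher by 1.02 (SE 0.21), BMF by 0.52 (SE 0.14) and BAK1 by 0.29 (SE 0.07). By limma, the adjusted p was 6.8e-08 for BCL2, 0.000413 for BCL2A1, 0.000772 for BIK, 0.0117 for BMF and 0.00252 for BAK1. The 4 that rose stand beside 12% of all tested genes that rose, and the 1 that fell beside 7.52% that fell. The median difference was 0.23 over the 10 members and 0.06 over all tested genes. These are bulk values, so that fewer cells of a kind and less RNA per cell cannot be told apart.

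The other 5 members did not pass the test on the mean of the lines. The differences were 0.05 (SE 0.03) for MCL1, 0.08 (SE 0.07) for BCL2L1, 0.32 (SE 0.15) for BCL2L11, −0.04 (SE 0.07) for BID and 0.16 (SE 0.27) for HRK. For MCL1 and BCL2L1 these small SEs bound the mean difference closely, whereas HRK is loosely bounded. MCL1 passed at 0.12 (adjusted p 0.0113, limma) when the libraries were quantile normalised, and at 0.09 (adjusted p 0.042) without OCI-AML3. BCL2L11 passed at 0.32 (adjusted p 0.01, limma) without the 6 shallow libraries.

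**Figure D1:**
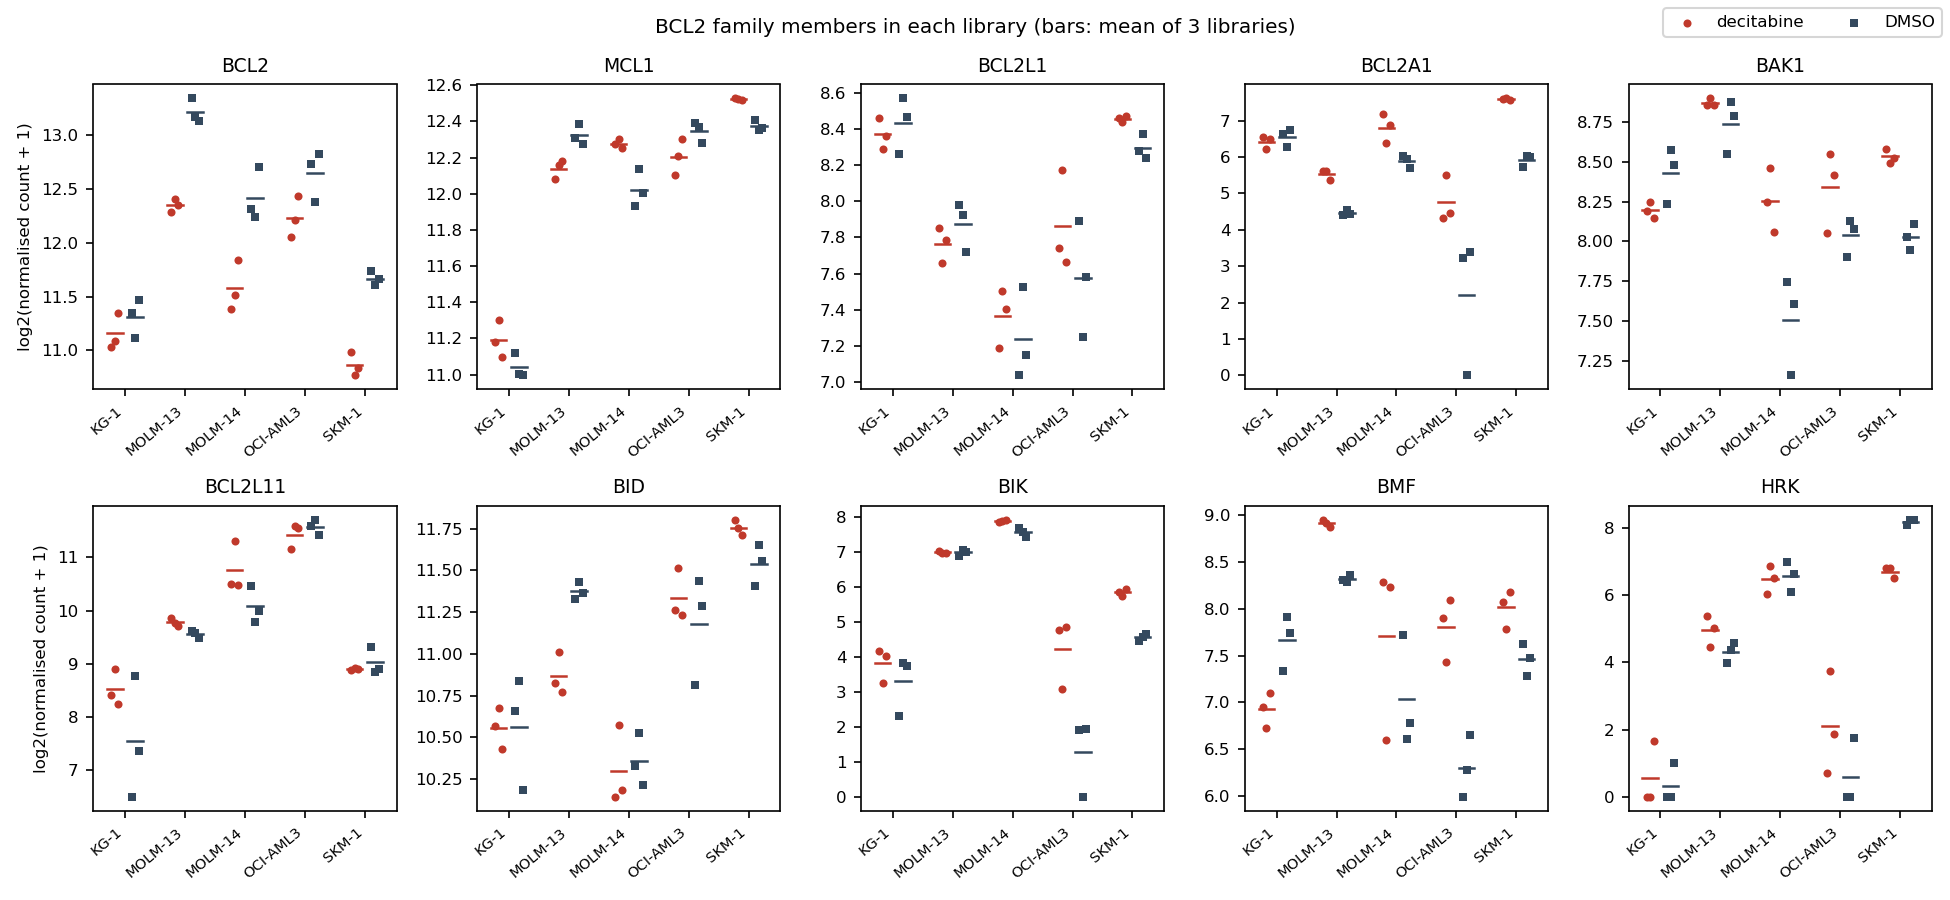
Level of each of the 10 members in each library, as log2(normalised count + 1), with decitabine libraries (circles) left of DMSO libraries (squares) in each line and a bar at the mean of 3. BCL2 circles lie below the squares in MOLM-13, MOLM-14 and SKM-1, BCL2A1 circles lie above them in every line but KG-1, and HRK circles lie below them in SKM-1.

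BCL2 (ENSG00000171791, chr18:63123346-63320128, minus strand, GRCh38) is a protein-coding gene that encodes the founding survival protein of the family. MOLM-13 had 4989, 5423 and 5237 normalised counts after decitabine, against 10399.7, 9238 and 8965 in DMSO. MOLM-14 had 2669, 2932 and 3677 after decitabine, against 5105, 4833 and 6695 in DMSO. SKM-1 had 2025, 1744 and 1829.9 after decitabine, against 3412, 3115 and 3240.4 in DMSO. In these 3 lines every decitabine library was below every DMSO library, and the mean after decitabine was 0.547, 0.558 and 0.573 of the DMSO mean. OCI-AML3 had 4259, 4751 and 5526 after decitabine, against 6813, 5341 and 7246 in DMSO, with the groups overlapping by 1 library. KG-1 had 2096, 2176 and 2614 after decitabine, against 2602, 2222 and 2831 in DMSO, with the groups overlapping.

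BCL2 fell by limma in MOLM-13 by 0.87 (SE 0.14, adjusted p 0.000561), in MOLM-14 by 0.84 (SE 0.14, adjusted p 0.000208) and in SKM-1 by 0.80 (SE 0.14, adjusted p 0.000222). The difference was −0.41 in OCI-AML3 (adjusted p 0.086) and −0.15 in KG-1 (adjusted p 0.728), neither of which passed. OCI-AML3 passed at −0.53 (adjusted p 0.0352) without the 6 shallow libraries, and also without its decitabine replicate 3 (−0.51, adjusted p 0.0411) or DMSO replicate 2 (−0.54, adjusted p 0.0337). The fall on the mean of the lines passed the test in each of 47 alternative fits, with differences between −0.84 and −0.47. It was −0.59 when libraries were scaled without mitochondrial genes, whose share was higher after decitabine in the mean of every line.

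MCL1 (ENSG00000143384, chr1:150574551-150579738, minus strand) encodes a short-lived survival protein, much of whose control is known to lie after transcription. In MOLM-14 it had 4949, 5059 and 4874 normalised counts after decitabine, against 3904, 4496 and 4103 in DMSO. In the sister line MOLM-13 it had 4325, 4567 and 4634 after decitabine, against 5070.02, 5353 and 4945 in DMSO. The groups did not overlap in either line, and they lay in opposite orders. MCL1 rose in MOLM-14 by 0.25 (SE 0.07, adjusted p 0.0167, limma), a call lost without decitabine replicate 2 (adjusted p 0.0557) or DMSO replicate 1 (adjusted p 0.0788) of that line. In MOLM-13 the difference was −0.18 (adjusted p 0.184, limma). SKM-1 had 5901, 5886 and 5863 after decitabine, against 5429, 5231 and 5265 in DMSO, groups that were apart by a small step (0.15, adjusted p 0.229, limma). The response of MOLM-13 minus that of MOLM-14 was −0.44 (SE 0.10, adjusted p 0.0184, limma). In this comparison 1.43% of all genes were called, and none of the other 9 members was. The MCL1 call passed in 38 of 43 alternative fits, with adjusted p of at most 0.0924 by limma. It was lost without MOLM-13 decitabine replicate 1, MOLM-13 DMSO replicate 2 or MOLM-14 DMSO replicate 1. It was also lost without SKM-1 and with neither trend nor robust variance. MOLM-13 and MOLM-14 are known to come from the same patient, but their libraries belong to the 2 sets that differ in depth.

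BCL2L1 (ENSG00000171552, chr20:31664452-31723989, minus strand) encodes BCL-XL and, by alternative splicing, the pro-apoptotic BCL-XS; gene-level values do not separate them, nor the splice forms of MCL1 and BCL2L11. Its differences lay between −0.11 in MOLM-13 and 0.29 in OCI-AML3, and no line passed the test. In SKM-1 it had 351, 345 and 353 normalised counts after decitabine, against 309, 330.1 and 301 in DMSO, groups that did not overlap. In the other 4 lines the groups overlapped. Reads of the antisense gene ABALON share 1424 bases of exon with BCL2L1, but no library had more than 15.3 normalised counts of ABALON.

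BCL2A1 (ENSG00000140379, chr15:79960889-79971446, minus strand) encodes BFL-1, a survival protein of the myeloid lineage and a known NF-kB target that venetoclax does not bind. SKM-1 had 194, 195 and 190.01 normalised counts after decitabine, against 52.1, 64.4 and 63.2 in DMSO. MOLM-13 had 47.8, 48.2 and 40.001 after decitabine, against 20.4, 22.4 and 20.8 in DMSO. MOLM-14 had 143, 82.7 and 117 after decitabine, against 64.4, 60.7 and 50.7 in DMSO. In these 3 lines all decitabine libraries were above all DMSO libraries. OCI-AML3 had 19.0, 44.8 and 21.2 after decitabine, against 8.35, 0 and 9.40 in DMSO, again without overlap, but the 44.8 rests on about 6.04 reads and the 0 on none. KG-1, which had the highest DMSO level, had 93.5, 73.5 and 88.7 after decitabine, against 97.8, 76.0 and 106 in DMSO, and its groups overlapped.

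BCL2A1 rose by limma in OCI-AML3 by 2.57 (SE 0.52, adjusted p 0.00307) and in SKM-1 by 1.68 (SE 0.52, adjusted p 0.0429). The differences were 1.06 in MOLM-13, 0.92 in MOLM-14 and −0.12 in KG-1. Without the 6 shallow libraries the OCI-AML3 difference was 1.09 (adjusted p 0.000513, limma), and BCL2A1 then rose in MOLM-13 (1.06, adjusted p 0.000126) and MOLM-14 (1.16, adjusted p 0.000199) too. Without DMSO replicate 2 of OCI-AML3 it was 1.47. The SKM-1 call passed in 7 of 17 alternative fits. It was lost when any 1 of the 6 SKM-1 libraries was left out (adjusted p 0.0981 to 0.138 for BCL2A1, differences of 1.58 to 1.73), with a pseudocount of 0.5 (adjusted p 0.117), with no filter (0.056) and with neither trend nor robust variance (0.0511), among others. On the mean of the lines BCL2A1 did not pass in a fit of OCI-AML3, KG-1 and MOLM-14 alone (1.12, adjusted p 0.11, limma).

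The summed level of 12 monocyte markers was higher after decitabine in every line, KG-1 included, where the BCL2A1 groups overlapped. Of the 12 markers 11 were tested and 8 rose on the mean of the lines, beside 12% of all tested genes, among them S100A8 by 2.05, CD86 by 1.84 and LYZ by 0.97, while FCGR1A, CD163 and FCN1 did not pass. Single markers went against the sum: in SKM-1 all decitabine libraries lay below all DMSO libraries in LYZ, CSF1R and FCGR1A, whose means after decitabine were 0.959, 0.882 and 0.699 of the DMSO means, and in MOLM-14 they did so in FCGR1A (0.801). LYZ is also among the 7 myeloid markers, of which 3 rose (MPO by 1.40 and CD34 by 0.80 besides) and 4 did not pass. The sum over these 7 was lower in SKM-1, at 37737 to 48442 after decitabine and 59740 to 60787 in DMSO. In KG-1 it was lower too, at 28659 to 30101 after decitabine and 31759 to 34388 in DMSO, and it was higher in MOLM-13, MOLM-14 and OCI-AML3. Of 5 lymphoid markers 2 rose, among them CD3E by 1.05. The sum over the 12 was 47822 to 48754 normalised counts after decitabine and 27075 to 28666 in DMSO in SKM-1, and 17028 to 20869 after decitabine and 7453 to 8732 in DMSO in OCI-AML3. It was 19131 to 19912 after decitabine and 9435 to 10074.7 in DMSO in MOLM-13, and 15106 to 16049 after decitabine and 6543 to 6878 in DMSO in MOLM-14. In KG-1 it was 3577 to 3665 after decitabine and 2469 to 2680.5 in DMSO. CD14, a defining marker of mature monocytes, averaged below 10 in all 10 groups and was at 0 in all 3 MOLM-14 decitabine libraries; CD163 was at 0 in MOLM-13 DMSO. The part of these markers in the rise of BCL2A1 was not tested.

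BAK1 (ENSG00000030110, chr6:33572547-33580293, minus strand) encodes one of the pore-forming effectors. MOLM-14 had 302, 352 and 266 normalised counts after decitabine, against 214, 142 and 194 in DMSO. SKM-1 had 382, 359.9 and 367 after decitabine, against 259.6, 246 and 275 in DMSO. The groups were apart in both lines and overlapped in the other 3. BAK1 rose in MOLM-14 by 0.75 (SE 0.15, adjusted p 0.00152, limma), or by 0.48 without the 6 shallow libraries (adjusted p 0.0221, limma). It rose in SKM-1 by 0.51 (SE 0.15, adjusted p 0.0309, limma), a call lost without any 1 SKM-1 library (adjusted p 0.056 to 0.131 for BAK1). Its rise on the mean of the lines was lost when MOLM-14 or SKM-1 was left out. BAX, the other main effector, differed by 0.06 (SE 0.16) on the mean of the lines and did not pass.

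BIK (ENSG00000100290, chr22:43110748-43129712, plus strand) encodes a BH3-only protein that acts at the endoplasmic reticulum. OCI-AML3 had 26.5, 7.42 and 27.8 normalised counts after decitabine, against 2.77, 0 and 2.80 in DMSO. In reads these are about 35, 1 and 26 after decitabine, against 2, 0 and 3 in DMSO, so that the DMSO level of this line rests on 5 reads. SKM-1 had 57.4, 52.6 and 61.2 after decitabine, against 21.1, 22.8 and 24.0 in DMSO, with all decitabine libraries higher. MOLM-14 had 231, 236 and 242 after decitabine, against 205, 191 and 171 in DMSO, apart by a small step. MOLM-13 had 129, 125 and 125 after decitabine, against 118, 133 and 128 in DMSO, which overlapped. KG-1 was at 17.04 or below in all 6 libraries.

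BIK rose by limma in OCI-AML3 by 2.95 (SE 0.46, adjusted p 0.000195). The difference was 1.30 in SKM-1 (adjusted p 0.0864), 0.52 in KG-1, 0.32 in MOLM-14 and 0.01 in MOLM-13. Without the 6 shallow libraries BIK rose in OCI-AML3 (2.89, adjusted p 3.4e-06, limma), SKM-1 (1.30, adjusted p 0.000503) and KG-1 (1.06, adjusted p 0.0351). Its rise on the mean of the lines passed in each of the 47 alternative fits, with differences between 0.54 and 1.27.

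BMF (ENSG00000104081, chr15:40087890-40108892, minus strand) encodes a BH3-only protein known to be released from the actin motor complex. OCI-AML3 had 238, 171 and 272 normalised counts after decitabine, against 62.5, 76.2 and 99.1 in DMSO. MOLM-13 had 494, 483 and 468 after decitabine, against 316, 311 and 327 in DMSO. SKM-1 had 269, 219.9 and 289 after decitabine, against 196, 155 and 176 in DMSO. All decitabine libraries were higher in these 3 lines. KG-1 had the opposite order, with 122.8, 105 and 136 after decitabine, against 161, 241 and 213 in DMSO. In MOLM-14 the groups overlapped, with 311, 95.4 and 301 after decitabine, against 209.7, 96.8 and 108 in DMSO, where the 95.4 is from shallow replicate 2.

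BMF rose by limma in OCI-AML3 by 1.51 (SE 0.32, adjusted p 0.00505). The differences were 0.60 in MOLM-13, 0.67 in MOLM-14, 0.56 in SKM-1 and −0.74 in KG-1, and none of these 4 passed. Without decitabine replicate 2 of MOLM-14 the difference there was 1.23 (adjusted p 0.00382, limma). The rise of BMF on the mean of the lines was lost when MOLM-13, OCI-AML3 or SKM-1 was left out. The antisense gene BMF-AS1 shares 461 exon bases with it and reached 28.9 normalised counts.

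BCL2L11 (ENSG00000153094, chr2:111119378-111168447, plus strand) encodes BIM, a BH3-only activator that binds all the survival proteins. KG-1 had 339, 480 and 304 normalised counts after decitabine, against 89.5, 436 and 163 in DMSO. DMSO replicate 2, a shallow library, stood with the decitabine libraries. MOLM-14 had 1443, 2541 and 1426 after decitabine, against 1411, 883 and 1023 in DMSO, without overlap. MOLM-13 had 928, 869 and 838 after decitabine, against 780.3, 763 and 714 in DMSO, also without overlap. BCL2L11 passed in no line, with 0.98 in KG-1 (adjusted p 0.12, limma) and 0.68 in MOLM-14 (adjusted p 0.209). Without KG-1 DMSO replicate 2 the KG-1 difference was 1.60 (adjusted p 0.000292, limma), and without all 6 shallow libraries it was 1.41 (adjusted p 0.000344). BCL2L11 shares 727 exon bases with the long noncoding gene MIR4435-2HG on the opposite strand, which reached 1455 normalised counts. Whether the counting used strand is not given in the sources used here, so the BCL2L11 values may include reads of that gene.

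BID (ENSG00000015475, chr22:17734138-17774770, minus strand) encodes the BH3-only protein that links caspase 8 to the mitochondrion. In MOLM-13 it had 1818, 2064 and 1744 normalised counts after decitabine, against 2577, 2762 and 2637 in DMSO, without overlap. In SKM-1 it had 3573, 3448 and 3359 after decitabine, against 2718, 3223 and 3007 in DMSO, again without overlap and in the opposite order. The differences were −0.51 in MOLM-13 (adjusted p 0.0781, limma) and 0.22 in SKM-1 (adjusted p 0.564). BID fell in MOLM-13 (adjusted p 0.00811, limma) without the 6 shallow libraries.

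HRK (ENSG00000135116, chr12:116856144-116881441, minus strand) encodes Harakiri, a BH3-only protein that binds BCL2 and BCL-XL. SKM-1 had 110.5, 112 and 89.4 normalised counts after decitabine, against 272, 298 and 302 in DMSO. Every decitabine library was at 112 or lower, while each DMSO library was at 272 or higher. The difference of −1.48 (SE 0.60) did not pass over all 30 libraries (adjusted p 0.144, limma), but it did without the 6 shallow libraries (adjusted p 0.0253, limma). MOLM-14 had 65.1, 115 and 89.5 after decitabine, against 125, 67.1 and 97.4 in DMSO, and MOLM-13 had 40.7, 20.9 and 31.7 after decitabine, against 14.8, 19.8 and 23.1 in DMSO, both with overlap. KG-1 had at most 2.13 in any library and OCI-AML3 at most 12.4, a value worth about 1.67 reads. The HRK difference of 1.53 in OCI-AML3 did not pass (adjusted p 0.151, limma), but it did without decitabine replicate 1 (2.23, adjusted p 0.0267) or DMSO replicate 3 (2.11, adjusted p 0.0483) of that line. Without the 6 shallow libraries it was 0.42 (adjusted p 0.705, limma), and with library weights 0.83 (adjusted p 0.695).

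**Figure D2:**
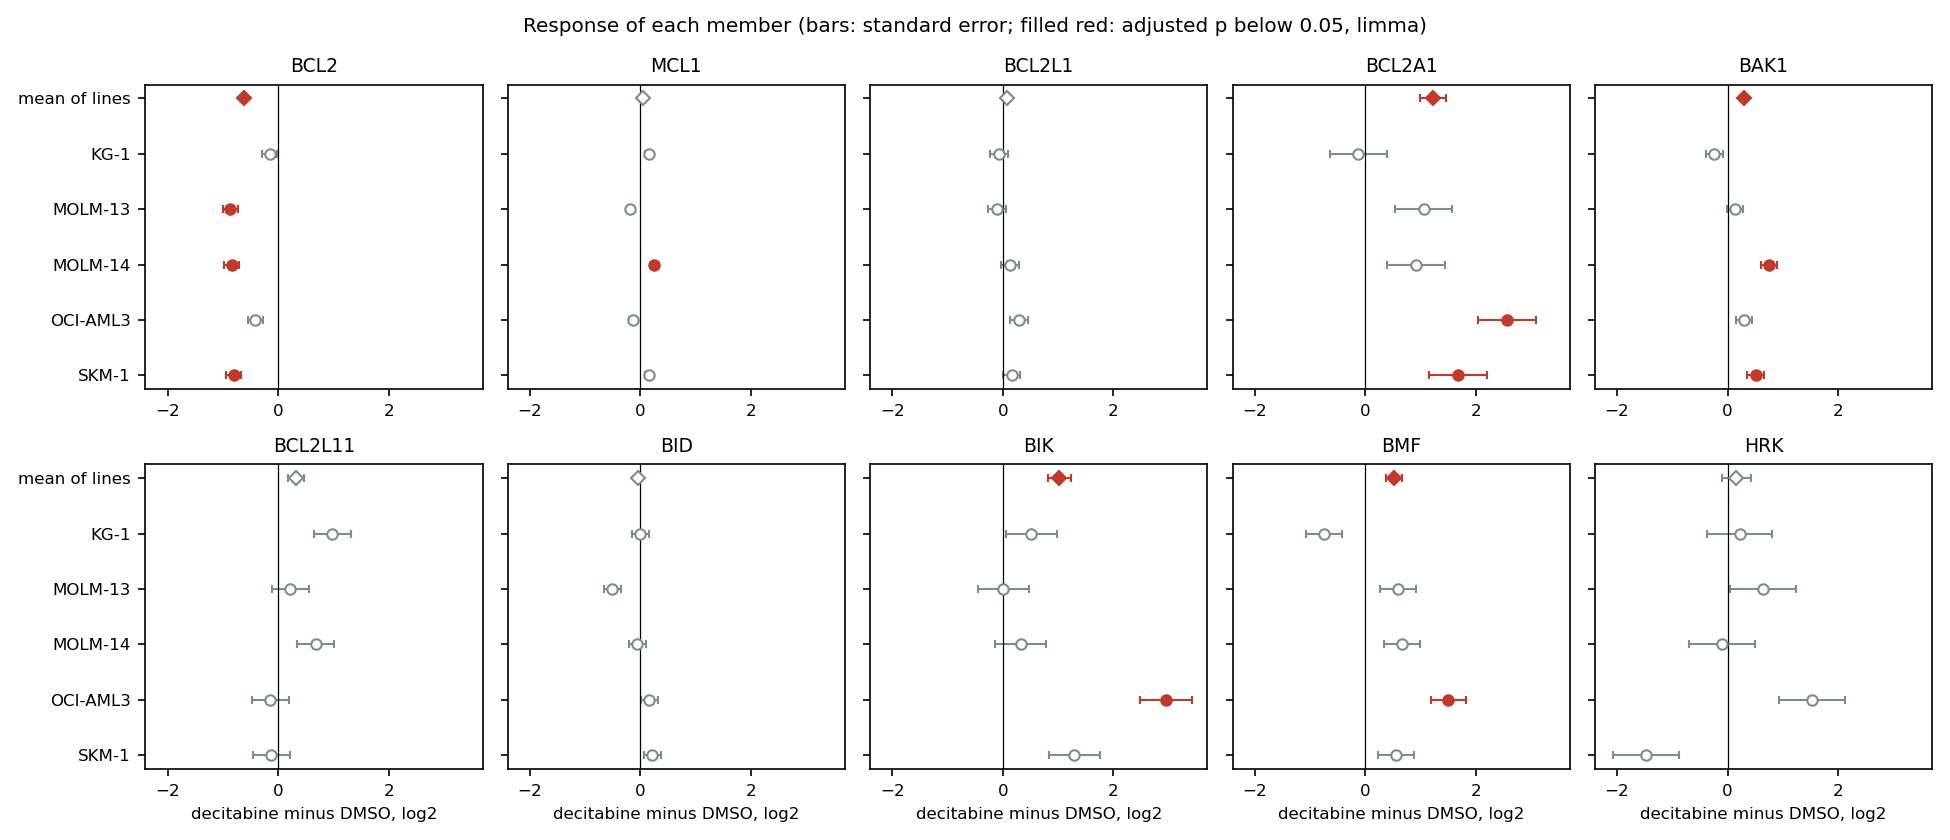
Decitabine minus DMSO on the log2 scale for each of the 10 members on the mean of the lines (diamonds) and in each line (circles), with the SE of the limma fit as bars and filled red symbols where the adjusted p was below 0.05. BCL2 lies left of 0 in every line, BIK (2.95) and BCL2A1 (2.57) lie farthest to the right in OCI-AML3, and no symbol is filled for KG-1.

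Line by line, 0 members were called in KG-1, 1 in MOLM-13 and 3 each in SKM-1, OCI-AML3 and MOLM-14. The share of all tested genes called was 3.78% in KG-1, 3.13% in MOLM-13, 11% in MOLM-14, 5.37% in OCI-AML3 and 9.02% in SKM-1. In KG-1 the lowest unadjusted p by limma were 0.00716 for BCL2L11, 0.0309 for BMF and 0.0359 for MCL1. None of these passed after adjustment (adjusted p 0.12, 0.285 and 0.306). With library weights 1 member, BCL2L11, was called in KG-1, beside 4.79% of all genes. These counts share 1 estimate of spread over lines whose replicates differ in closeness: replicates correlated with r of 0.987 or more in MOLM-13 and SKM-1 and of 0.918 or more in the other 3 lines. With each line fitted on its own (4 residual degrees of freedom), 6 members were called in MOLM-13 and 8 in SKM-1, against 0 in each of the other lines, where 21.1% and 35.3% of all genes were called in MOLM-13 and SKM-1 and 0.198%, 0.474% and 1.24% in OCI-AML3, KG-1 and MOLM-14.

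In SKM-1 fitted on its own, BCL2 and HRK fell, and MCL1, BCL2A1, BAK1, BID, BIK and BMF rose. HRK had an adjusted p of 6.02e-05, BIK of 0.00028 and BMF of 0.0134 in that limma fit. In MOLM-13 fitted on its own, BCL2, MCL1 and BID fell, and BCL2A1, BCL2L11 and BMF rose. There BID had an adjusted p of 0.00399, BMF of 0.00159 and MCL1 of 0.0429 in the limma fit.

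The response itself differed between the lines for 5 of the 10 members, beside 9.46% of all genes, by an F-test of the 5 differences in limma. The adjusted p was 0.00612 for MCL1, 0.0177 for BIK, 0.0204 for BAK1, 0.0218 for BMF and 0.0393 for BCL2. It was 0.124 for BCL2A1, 0.14 for BID, 0.142 for HRK, 0.321 for BCL2L11 and 0.667 for BCL2L1. KG-1 stood apart from the mean response of the other 4 lines in 3 members (3.02% of all genes were called): its BCL2 response differed by 0.58 (adjusted p 0.038), its BAK1 response by −0.66 (adjusted p 0.0271) and its BMF response by −1.57 (adjusted p 0.0138, all limma). The first of these is a smaller difference below 0, since BCL2 had −0.15 in KG-1. These calls passed in 26, 37 and 42 of 45 alternative fits for BCL2, BAK1 and BMF. Without KG-1 DMSO replicate 2, a shallow library, none of these 3 passed, with adjusted p of 0.163 for BCL2, 0.104 for BAK1 and 0.0585 for BMF, while the BCL2L11 response of KG-1 then stood apart at 1.44 (adjusted p 0.00405, limma). OCI-AML3 stood apart in BIK, whose response was higher by 2.42 (adjusted p 0.0102, limma), beside 2.41% of all genes, a call lost without its DMSO replicate 2 (1.78, adjusted p 0.0552 for BIK, limma). The other 3 lines had 0 members that stood apart by limma, beside 1.38% of all genes in MOLM-13, 3.62% in MOLM-14 and 3.88% in SKM-1. The lowest unadjusted p of a member was 0.000975 in MOLM-13 (MCL1), 0.00207 in MOLM-14 (BAK1) and 0.00509 in SKM-1 (HRK), all limma. The adjusted p was 0.0628, 0.0551 and 0.101 in the same order. With library weights MCL1, BID and BIK were called in MOLM-13, MCL1 in MOLM-14, and BCL2A1, BAK1, BCL2L11, BID and HRK in SKM-1. The share of all genes called in these weighted comparisons is not given here. In the F-test between lines, calls over all genes were more frequent with library weights, at 26.1% against 9.46% in the main fit. The F-test for BCL2 passed in 21 of 47 alternative fits, for MCL1 in 44, for BAK1 in 43, for BIK in 41 and for BMF in 39.

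In DMSO the lines differed in every member. The F-test of the DMSO levels between lines passed for 10 of 10 members, beside 77.9% of all genes. Per kilobase of exon, MCL1 had the highest mean DMSO level of the 10 in all 5 lines, from 482 normalised counts per kb in KG-1 to 1214 in SKM-1. BCL2 was next in MOLM-13 at 810.4, in MOLM-14 at 471 and in OCI-AML3 at 549.6, and BID was next in KG-1 at 346 and in SKM-1 at 671. HRK was the lowest in 4 lines and BIK in SKM-1, and HRK ranged from 0.0482 per kb in KG-1 to 42.4 in SKM-1. Over the longest coding transcript in place of all exons, BID (616) came before MCL1 (536) in KG-1 and BID (943) before BCL2 (867) in OCI-AML3.

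**Figure D3:**
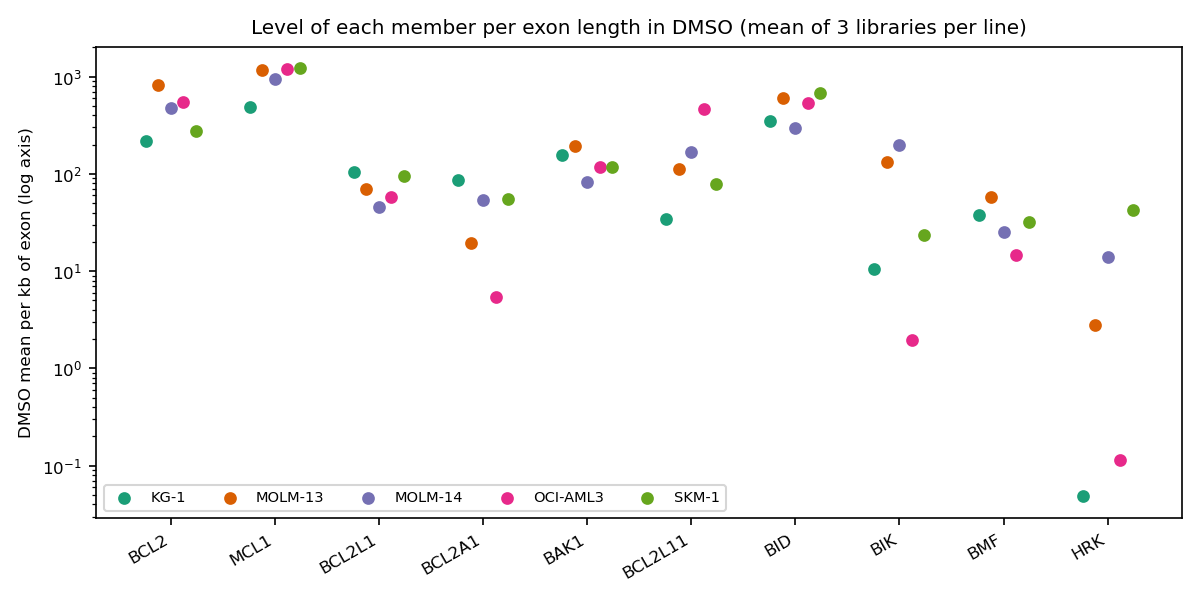
Mean DMSO level of each member per kb of exon in the 5 lines, on a log axis (mean of 3 libraries per point). MCL1 lies highest in every line, between 482 and 1214, and BCL2A1, BIK and HRK spread most between lines.

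Between pairs of lines, the share of all genes whose DMSO level differed was 49.5% and 44.7% for KG-1 against MOLM-13 and MOLM-14, and 43.4% and 49.2% for KG-1 against OCI-AML3 and SKM-1. It was 36.2%, 47.9% and 40.6% for MOLM-13 against MOLM-14, OCI-AML3 and SKM-1, 38.3% and 50.4% for MOLM-14 against OCI-AML3 and SKM-1, and 50.6% for OCI-AML3 against SKM-1. Ordered by DMSO level, BCL2 was highest in MOLM-13, followed by OCI-AML3, MOLM-14, SKM-1 and KG-1. On the log2 scale MOLM-13 was above OCI-AML3 by 0.57 (adjusted p 0.00135), MOLM-14 above SKM-1 by 0.75 (adjusted p 6.17e-05) and SKM-1 above KG-1 by 0.36 (adjusted p 0.0343, limma), while OCI-AML3 and MOLM-14 did not differ beyond their spread (0.22, adjusted p 0.214). For MCL1, SKM-1, OCI-AML3 and MOLM-13 did not differ as neighbours, MOLM-13 was above MOLM-14 by 0.30, and KG-1 was lower than MOLM-14 by a step of 0.98. BCL2A1 was highest in KG-1, SKM-1 and MOLM-14, whose neighbours did not differ, then MOLM-13 and last OCI-AML3. BCL2L11 was highest in OCI-AML3, by 1.49 over MOLM-14, and lowest in KG-1, by a step of 1.48 below SKM-1. BIK was highest in MOLM-14 and MOLM-13, which did not differ as neighbours, and lowest in OCI-AML3. HRK was highest in SKM-1, by 1.62 over MOLM-14 (adjusted p 0.026, limma), which was above MOLM-13 by 2.25.

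Of the other members, BAK1 was highest in MOLM-13 and KG-1, which did not differ as neighbours (0.31, adjusted p 0.0935, limma). It was lowest in MOLM-14, which lay 0.52 below SKM-1. BCL2L1 was highest in KG-1 and SKM-1 and lowest in MOLM-14, which did not differ from its neighbour OCI-AML3 (0.34, adjusted p 0.107, limma). BID was highest in SKM-1, MOLM-13 and OCI-AML3, with OCI-AML3 above KG-1 by 0.62. BMF had no neighbours that differed (steps of 0.21 to 0.73). Between the sister lines, MOLM-13 had the higher DMSO level of BCL2 (0.79), MCL1 (0.30), BCL2L1 (0.63), BAK1 (1.24), BID (1.02) and BMF (1.28), and the lower level of BCL2A1 (−1.42) and HRK (−2.25), all past the limma test, where 36.2% of all genes were called. BCL2L11 and BIK did not pass between them. These DMSO differences too lie across the division in submission and depth.

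The ratio of BCL2 to MCL1 was lower after decitabine in the mean of each line. Its range was 0.296 to 0.343 after decitabine and 0.595 to 0.628 in DMSO in SKM-1. It was 0.539 to 0.755 after decitabine and 1.07 to 1.63 in DMSO in MOLM-14, and 1.13 to 1.19 after decitabine and 1.73 to 2.05 in DMSO in MOLM-13. These ranges do not overlap. In OCI-AML3 it was 0.968 to 1.10 after decitabine and 1.01 to 1.46 in DMSO, and in KG-1 it was 0.863 to 1.19 after decitabine and 1.08 to 1.39 in DMSO, both with overlap. The ratio of BCL2 to BCL2A1 averaged 9.66 ± 0.74 after decitabine and 55.0 ± 9.2 in DMSO in SKM-1 (SD, n = 3 each), and 27.2 ± 4.1 after decitabine and 27.5 ± 1.5 in DMSO in KG-1 (SD, n = 3 each). These ratios are of counts not divided by length, were computed within each library and were not tested.

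**Figure D4:**
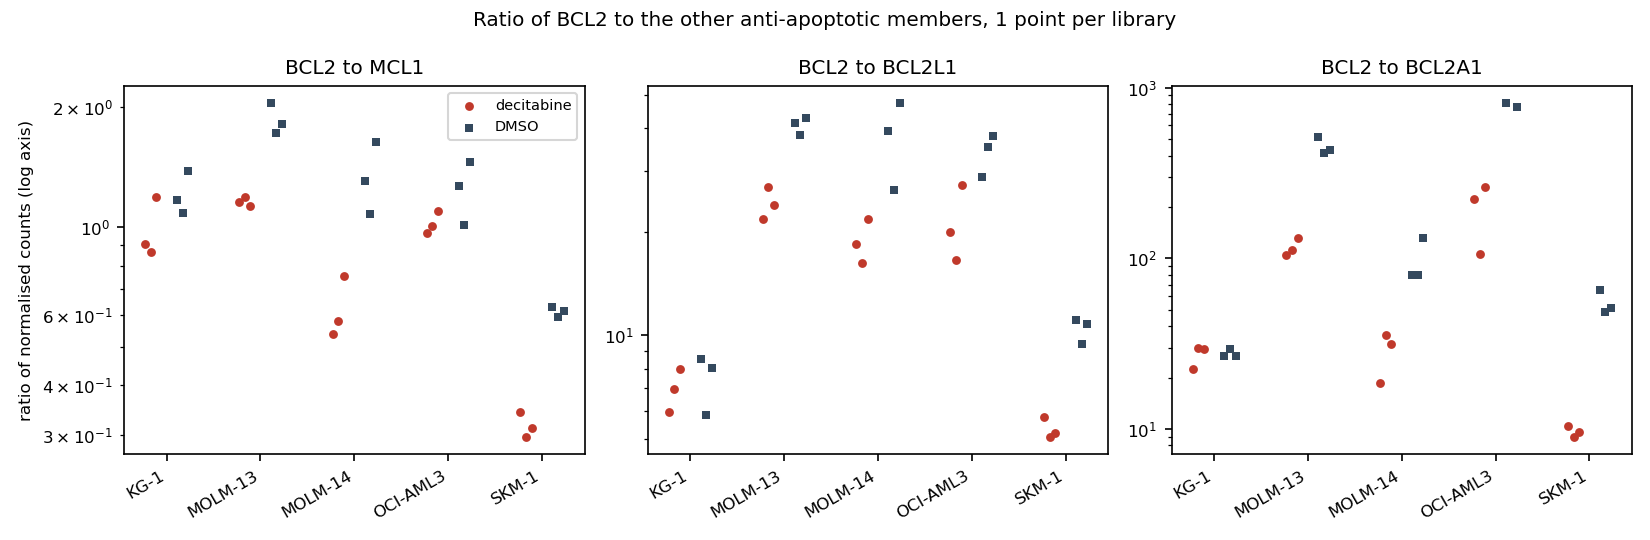
Ratio of the normalised count of BCL2 to that of MCL1, BCL2L1 and BCL2A1 in each library, on log axes, with decitabine libraries (circles) left of DMSO libraries (squares). For MCL1 the circles lie wholly below the squares in SKM-1, MOLM-14 and MOLM-13; the OCI-AML3 DMSO library with 0 for BCL2A1 has no point in the last panel.

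Members were set against all 22168 tested genes across the 10 means of line and treatment, and the genes with the highest r are named. By Pearson's r, the nearest to BCL2 was TSR1 (0.95), to BCL2A1 TREML2 (0.95), to BAK1 HEXA (0.94), to BCL2L11 BAZ2A (0.98), to BIK BIN2 (0.98), to HRK CPOX (0.97), to BCL2L1 TMEM42 (0.97) and to BID DMC1 (0.95). The 3 nearest to MCL1 were NCF1B, NCF1 and NCF1C (0.98 to 0.99), near-identical copies whose reads cannot be assigned with certainty. Among the members, BAK1 and BMF had r of 0.79 and BCL2 and BCL2A1 of −0.78. The points are pairs of treatments in the same 5 lines and are a description only. The highest of 22168 values of r over 10 points can be this high without any link between the genes.

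The counts of other pathway genes on the mean of the lines stand beside the same 12% of all tested genes that rose and 7.52% that fell. Among 13 further BCL2 family genes 11 were tested, of which 1 rose and 1 fell. BNIP3L, a mitophagy receptor, rose by 0.39, and BNIP3, its relative, fell by 0.15. The BNIP3 response differed between the lines (adjusted p 8.95e-05, limma F-test). After decitabine the BNIP3 mean was 0.599 of the DMSO mean in MOLM-13, 0.768 in OCI-AML3 and 0.88 in MOLM-14, but 1.29 in SKM-1 and 1.14 in KG-1, without overlap in any line. The BH3-only genes BBC3, which encodes PUMA, and PMAIP1, which encodes NOXA, differed by 0.01 (SE 0.11) and −0.07 (SE 0.05) and did not pass on the mean of the lines; like the other genes named here as not passing, they were chosen after their values were seen. The PMAIP1 response differed between the lines (adjusted p 0.00123, limma F-test): PMAIP1 fell in MOLM-14 by 0.60 (adjusted p 0.00159) and rose in SKM-1 by 0.43 (adjusted p 0.0198, limma). The median over the 11 was 0.01, against 0.06 over all genes. Downstream of the mitochondrion, 3 of 16 genes rose and 6 fell (median 0.00). BIRC3, an inhibitor of apoptosis, rose by 1.62 (SE 0.37) and APAF1, the scaffold of the apoptosome, by 0.32 (SE 0.09). HTRA2 fell by 0.33, the channels VDAC1 and VDAC2 by 0.25 and 0.16, cytochrome c (CYCS) by 0.21, BIRC5 by 0.18 and AIFM1 by 0.15.

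In the death receptor pathway 3 of 10 genes rose and 0 fell (median 0.14): TNFRSF10B, the TRAIL receptor DR5, by 0.49 (SE 0.08), CASP10 by 0.38 (SE 0.12) and RIPK1 by 0.28 (SE 0.06). Of 11 transcription factors known to regulate family members, JUN rose by 1.21 (SE 0.11), NFKB2 by 0.76 (SE 0.10) and FOXO3 by 0.16 (SE 0.05), while MYC fell by 0.74 (SE 0.05) and E2F1 by 0.17 (SE 0.06) (median 0.02). Of 3 genes that control MCL1 protein stability, the ubiquitin ligase HUWE1 fell by 0.21 (SE 0.06), and FBXW7 and USP9X did not pass (median −0.13).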

How the data were processed

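RNA-seq libraries were made from total RNA with a stranded ribosomal depletion kit and read as single 50 base reads, per the labels' protocols. The deposited table holds a signal per gene that the authors had already normalised between libraries. The submitters' processing notes name Salmon 1.2.1, STAR, featureCounts, DESeq2, limma and hg38 without saying which step made this table. Of its 42 columns, 30 matched a labelled library of the 5 lines, and 12 were not used. For KG-1, MOLM-14 and OCI-AML3 the treatment rests on the letters t and u in the column names, read as in the labels of MOLM-13 and SKM-1. Another 12 labelled libraries, from THP-1 and OCI-AML2, were not analysed here.

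Between 50.04% and 71.2% of low values were whole multiples of 1 read (tolerance 0.02 of a read), so no count model was used. Values were taken as log2(value + 1), genes reaching 10 in 3 or more libraries were kept (22168), and limma 3.58.1 in R 4.3.3 fitted 10 group means with trend and robust variance (20 residual degrees of freedom), Benjamini-Hochberg adjusted over all genes. Decitabine was set against DMSO within each line, as the mean over lines, and between lines. The procedure was tested on simulated data. GENCODE 29 (GRCh38) gave coordinates and lengths, with 58064 of 60240 genes matched, and promoters came from RefSeq (GRCh38.p14). Alternatives changed the pseudocount, filter, scaling, variance model, weights, lines and libraries.

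The members and gene lists were chosen with earlier results of these data known. All members are named; other genes are named where they were called on the mean of the lines, at most 8 a list, or were among the 3 most like a member; some are not reported here. Figures used Python 3.11.15, pandas 2.3.3 and matplotlib 3.10.9.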

Additional observations from a re-analysis of the deposited data

Results flagged for a closer look

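Members whose response to decitabine differed between the 5 lines, by the adjusted p of the limma F-test, were MCL1 (0.00612), BIK (0.0177), BAK1 (0.0204), BMF (0.0218) and BCL2 (0.0393). The MCL1 response also differed between the sister lines, with MOLM-13 minus MOLM-14 at −0.44 on the log2 scale, a call that passed in 38 of 43 alternative fits.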

How the results depend on the processing

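Of 1320 member values recomputed under the alternatives, 1235 kept their call or lack of one, 35 were no longer called and 50 became called. Direction was compared only for values called in the main fit, of which 0 changed sign. Some uncalled values did change sign, such as BCL2L1 in OCI-AML3 (−0.03 to 0.44 over the alternatives). BCL2 and BIK were called on the mean of the lines in all 47 alternatives. Members higher on the mean of the lines numbered 4, or 2 without SKM-1, 1 in the 3 lines OCI-AML3, KG-1 and MOLM-14 by themselves, and 4 to 5 when 1 library was left out. Members lower numbered 1, or 3 in MOLM-13 and SKM-1 alone, where BID and HRK joined BCL2, and 1 to 1 when 1 library was left out. The response differed between lines for 5 members, or 3 with neither trend nor robust variance, 9 with library weights, 2 without KG-1, 0 without MOLM-13, 1 without SKM-1 and 0 in OCI-AML3, KG-1 and MOLM-14 by themselves. It differed for 3 to 6 with 1 library left out, 3 being without KG-1 decitabine replicate 2. DMSO levels differed for 10 to 10.

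In KG-1 0 members were called, or 1 with library weights, 2 without the 6 shallow libraries and 0 to 1 with 1 library left out (1 without DMSO replicate 2). In MOLM-13 1 was called, or 5 with weights, 3 without the shallow libraries, 6 fitted alone and 1 to 1 with 1 left out. In MOLM-14 3 were called, or 5 without the shallow libraries, 0 fitted alone and 2 to 3 with 1 left out. In OCI-AML3 3 were called, or 0 fitted alone and 3 to 4 with 1 left out. In SKM-1 3 were called, or 5 with a pseudocount of 8, 1 with no filter, 8 with weights, 5 without the shallow libraries, 8 fitted alone and 1 to 1 with any 1 left out. The share of all genes called moved as well. With weights it was 4.79% in KG-1, 25.5% in MOLM-13 and 37.4% in SKM-1. Without the shallow libraries it was 5.77% in KG-1, 12.1% in MOLM-13, 14% in MOLM-14 and 20.8% in SKM-1. The cause of these moves was not tested. No such share is given here for a pseudocount of 8, for no filter or for fits with 1 library left out.

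Over all genes, those higher and lower on the mean of the lines numbered 2666 and 1667, against 4138 and 2320 without the shallow libraries, 1414 and 901 without SKM-1, 5585 and 3393 in SKM-1 and MOLM-13 alone, and 779 and 343 in the other 3 lines alone. They numbered 3062 and 1801 with a pseudocount of 8. With no filter, where 44246 genes were tested, they numbered 2645 and 1435. The response differed for 2096 genes, against 5794 with weights, 4789 without the shallow libraries, 1143 without MOLM-13, 737 without SKM-1, 4261 in MOLM-13 and SKM-1 alone and 231 in the other 3 lines. Of the 50 ranks per length, 14 moved with the longest coding transcript.

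Same-numbered libraries had deviations correlated above 0.1 in 6 of 15 pairs (−0.0225 to 0.153), fewer than the every pair asked for here to treat the numbers as pairing. That 12 of 15 correlated best with their own number is a hint of pairing from the data, not from the design. With the replicate number as a block, 4 members were higher and 1 lower on the mean of the lines, the response differed for 6, and 2 were called in MOLM-13, 3 in MOLM-14, 4 in OCI-AML3, 3 in SKM-1 and 0 in KG-1. Over all genes the block gave 2940 higher and 1937 lower on the mean of the lines, against 2666 and 1667 in the main fit. It gave 2272 genes whose response differed, against 2096. The share of all genes called in each line with the block is not given here. The block lost BCL2A1 in SKM-1 (adjusted p 0.109) and gained BIK in SKM-1 (0.0269), BCL2 in OCI-AML3 (0.0172) and BID in MOLM-13 (0.0146, limma). Depth limits BIK, BCL2A1 and HRK most in OCI-AML3, where some values rest on a few reads.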
